A study of Mus musculus with 60 samples.

Results

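Mouse liver was profiled by bulk RNA-seq 24 h after partial hepatectomy (PHX), the surgical removal of about 2/3 of the organ, and compared with Normal liver. The comparison used 6 of the 60 libraries of the series, 3 labelled PHX-24h and 3 labelled Normal liver, and covered every gene with at least 1 FPKM (fragments counted per gene, divided by transcript length and library size) in 3 or more of these 6 libraries. That left 10199 of the 17475 genes of the liver table, and 7276 genes were below this limit. Of the tested genes 130 were under 1 FPKM in all 3 Normal liver libraries and 126 in all 3 PHX-24h libraries. These passed the limit through 1 group only, so they could differ in 1 direction only. All libraries were labelled wild-type C57BL/6, and the study's methods give C57BL/6J mice of 8 to 10 weeks. The Normal liver group carries the treatment label Normal, and the PHX groups shared the same resection and differed in the time of sampling, which was 6 or 24 h, or day 3, 7 or 14. Each group had 3 libraries, 18 liver libraries in all. No sham-operated group was analysed here, so that resection cannot be told apart from anaesthesia, wounding, altered feeding or the hour of sampling. Whether each library came from a separate mouse was not stated, so p-values measure the spread between libraries.

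The liver regrows after resection by division of its remaining hepatocytes, which leave quiescence, copy their DNA and divide over the days that follow. Cytokines of the interleukin 6 (IL6) family act through the receptor chain gp130 and the transcription factor STAT3, and NF-kappaB responds to tumour necrosis factor. These signals switch on acute phase genes, whose products are secreted into plasma, while hepatocyte growth factor and ligands of the EGF receptor drive entry into S phase. Throughout this time the remnant must go on making bile acids, urea, glucose and plasma proteins for the whole body.

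Depth was even, at 52.1 to 57.9 M reads on genes in the 6 libraries, as recovered from the steps between FPKM values, and no pair of replicates agreed within sampling noise. The hepatocyte markers were the most abundant markers in every library and none was at 0, so the tissue label held. PHX-24h replicate 1 stood apart from the other 2 libraries of its group. It lay at least 2-fold from the group median in 218 genes, against 48 for replicate 2 and 38 for replicate 3, and it was the PHX-24h library nearest to the Normal liver mean in 51.4% of all tested genes. PHX-D3 replicate 2, which is outside the main comparison but enters the shared estimate of spread, lay at least 2-fold from its group median in 1091 genes, against 42 and 103 for the others. The main results are therefore given with and without these libraries for many lists, and lost calls of the genes described are marked. Small changes in the counts of other lists are not all given. Where a call is said to be lost without a library, the libraries were left out 1 at a time.

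At 24 h 412 genes were called higher and 463 called lower than in Normal liver, that is, by at least 2-fold with a Benjamini-Hochberg adjusted p under 0.05 (limma), which is 4.04% and 4.54% of the genes tested, or 8.58% together. The remaining genes did not pass, and the median log2 fold change over all tested genes was -0.02. Below, a fold change is a difference in log2(FPKM + 1) between group means of 3 libraries, given ± its standard error and with the adjusted p, and the counts for gene lists are counts of called genes. In all, 408 of the 412 higher and 461 of the 463 lower genes had no overlap between the libraries of the groups, where 23.9% and 25.5% of all tested genes were separated in these directions. Replicate 1 was the PHX-24h library closest to Normal liver in 72.8% of the higher and 84% of the lower genes. Without it 484 genes were higher and 658 lower.

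**Figure D1:**
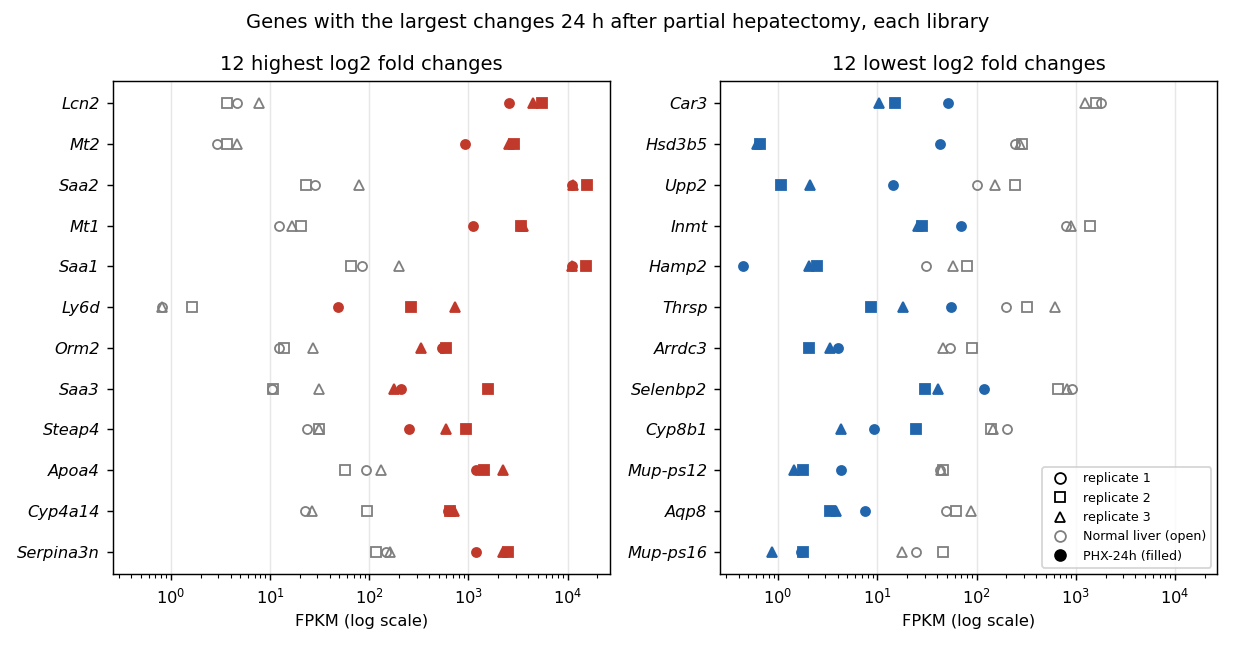
FPKM on a log scale of the 12 genes with the highest (left) and the 12 with the lowest (right) log2 fold change at 24 h, each point being 1 library, with Normal liver open and PHX-24h filled and the shape giving the replicate. In all 24 genes the groups do not overlap, and in most of the falling genes the PHX-24h circle, replicate 1, lies closest to Normal liver.

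The greatest rises were in acute phase and metal-binding genes. Lcn2, which encodes the iron-siderophore binding protein lipocalin 2, stood at 4.64, 3.72 and 7.68 FPKM in Normal liver and 2582, 5470 and 4472 at 24 h. It was the gene with the highest log2 fold change of all (9.34 ± 0.71, adjusted p = 1.37e-06), and all 3 PHX-24h libraries were high. Saa1, encoding serum amyloid A, an acute phase apolipoprotein, was at 84.98, 65.4 and 198 FPKM in Normal liver and 11182, 15344 and 11149 at 24 h (6.9 ± 0.59, adjusted p = 4.23e-06). Its neighbour Saa2 was at 28.4, 23.3 and 78.5 FPKM in Normal liver and 11159, 15867 and 11446 at 24 h (8.36 ± 0.69, adjusted p = 2.97e-06). Reads of these near-identical copies may have been split between them, so their separate levels are uncertain. Together with the metallothionein genes Mt1 and Mt2, Lcn2, Saa1 and Saa2 held 4.73 to 7.23% of the summed FPKM of a PHX-24h library, against 0.0198 to 0.0527% in Normal liver.

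The acute phase programme had the largest share of called members of the 44 pathway lists. Of 27 genes listed 26 were tested, of which 22 rose and 1 fell, with a median log2 fold change of 1.98. Orm2, an orosomucoid plasma protein, was at 12.2, 13.8 and 27.2 FPKM in Normal liver and 539.6, 591 and 336 at 24 h (4.75 ± 0.7, adjusted p = 0.000224). Saa3 was at 10.5, 10.8 and 31.2 FPKM in Normal liver and 209.9, 1571 and 179.6 at 24 h (4.58 ± 0.88, adjusted p = 0.00123), with replicate 2 far above the others. Serpina3n, a secreted serine protease inhibitor, was at 148, 116 and 161 FPKM in Normal liver and 1199, 2493 and 2213 at 24 h (3.73 ± 0.42, adjusted p = 2.46e-05). The member that fell was Hamp2, a copy of the hepcidin gene, at 31.2, 79.7 and 57.7 FPKM in Normal liver and 0.439, 2.48 and 2.03 at 24 h (-4.43 ± 0.73, adjusted p = 0.000429). It was lowest in replicate 1, unlike most genes that fell. The list changed by at most 1 call when any PHX-24h library was left out, and the medians of its 26 members in the separate PHX-24h libraries, as differences from the Normal liver mean, were 1.68, 2.16 and 2.05. Cd14, the endotoxin co-receptor, was chosen after its values were seen as a member on which the libraries disagreed, with 1.51, 1.47 and 1.79 FPKM in Normal liver and 2.07, 53.2 and 50.9 at 24 h.

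Components and targets of the IL6 pathway rose in part. Of 16 tested members of the list of IL6 receptor, STAT3 and feedback genes 7 rose and 1 fell, with a median of 0.62. Socs3, the feedback inhibitor of this pathway, was at 4.26, 6.33 and 3.38 FPKM in Normal liver and 21.9, 44.4 and 48.8 at 24 h (2.75 ± 0.65, adjusted p = 0.00488). Cebpd, a transcription factor induced by STAT3, was at 3.09, 2.01 and 2.301 FPKM in Normal liver and 5.85, 19.3 and 12.9 at 24 h (1.86 ± 0.35, adjusted p = 0.00122). The NF-kappaB partner Bcl3 was at 21.6, 17.3 and 21.4 FPKM in Normal liver and 45.3, 59.5 and 53.2 at 24 h (1.34 ± 0.25, adjusted p = 0.000937). All 3 were higher in every PHX-24h library than in any Normal liver library. Osmr, the oncostatin M receptor chain, rose from a low level (0.7498, 0.603 and 0.521 to 1.71, 4.33 and 4.75 FPKM, log2 fold change 1.43 ± 0.25, adjusted p = 0.000723). Osmr passed the limit on FPKM through the PHX-24h libraries alone, so only a rise could be called. Lifr, the receptor of leukaemia inhibitory factor, fell (112, 105 and 139 FPKM in Normal liver and 76.03, 14.9 and 29.6 at 24 h, -1.83 ± 0.58, adjusted p = 0.0239). The call for Lifr was lost without Normal liver replicate 1 or 3 or PHX-24h replicate 2 or 3 (log2 fold change -1.86 to -1.29, adjusted p 0.0511 to 0.123). The list had 5 higher and no lower members without PHX-24h replicate 3. Il6 itself was below the limit for testing and was listed at 0 in all Normal liver libraries and at 0, 0.0324 and 0.0326 FPKM at 24 h. Tnf was below it as well, at 0.06505, 0.198 and 0.1803 and 0.177, 0.0221 and 0.0668 FPKM.

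STAT sites and NF-kappaB sites were looked for in the 250 bases before the gene start, taken from RefSeq for mouse build GRCm38.p6. The letters TTCNNNGAA on either strand, a STAT site, were in 7 of the 22 acute phase members with a promoter entry (31.8%), against 7.18% of all 27025 promoters. Of these 7 members 6 were called, and 1 of those was Hamp2, which fell. Most members of the list were called whether or not they held the letters, 20 of the 22 with a promoter entry. The promoters of Lcn2, Saa1, Saa2, Saa3, Orm2 and Serpina3n, which rose, did not hold the STAT letters. The letters GGGNNNTTCC, an NF-kappaB site, were in 3 of the same 22 (13.6%), against 4.6% of all. Promoters that hold the STAT letters are shown for 2 genes that rose, with the match in capitals. Steap4, a metalloreductase, lies at chr5:7960222-7960471 (+ strand), and its match starts 116 bases before the gene start. Fgb, the fibrinogen beta chain, lies at chr3:83049864-83050113 (- strand), with the match 162 bases before the start.
Steap4: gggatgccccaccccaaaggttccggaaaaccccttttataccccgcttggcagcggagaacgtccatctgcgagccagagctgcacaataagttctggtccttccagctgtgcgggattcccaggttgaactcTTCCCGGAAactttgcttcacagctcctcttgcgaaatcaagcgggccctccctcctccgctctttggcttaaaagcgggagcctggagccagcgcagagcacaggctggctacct
Fgb: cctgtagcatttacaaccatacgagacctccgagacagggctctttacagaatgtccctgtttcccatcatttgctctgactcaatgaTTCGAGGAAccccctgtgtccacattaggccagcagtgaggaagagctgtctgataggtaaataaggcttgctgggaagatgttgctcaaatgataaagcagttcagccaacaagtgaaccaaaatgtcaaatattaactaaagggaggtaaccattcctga
Steap4 was at 23.9, 31.03 and 31.2 FPKM in Normal liver and 251, 937 and 599 at 24 h (4.14 ± 0.42, adjusted p = 1.21e-05). Fgb was at 2362, 2576 and 2378 FPKM in Normal liver and 4819, 9597 and 9185 at 24 h (1.62 ± 0.34, adjusted p = 0.002). A match of letters describes the sequence and was not tested as a binding site.

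Chemokine genes moved both ways. Of 12 tested, 5 rose and 2 fell, with a median of -0.24. Cxcl1, which attracts neutrophils, was at 3.07, 17.8 and 2.28 FPKM in Normal liver and 41.2, 148 and 84 at 24 h (3.68 ± 0.78, adjusted p = 0.00227), although 1 Normal liver library was itself at 17.8 FPKM. The monocyte attractant Ccl6 was at 5.46, 7.03 and 6.99 FPKM in Normal liver and 27.9, 50.6 and 51.4 at 24 h (2.52 ± 0.71, adjusted p = 0.0127). Cxcl9, an interferon-gamma target, fell from 4.99, 5.78 and 7.49 to 0.965, 2.9 and 1.505 FPKM (-1.39 ± 0.37, adjusted p = 0.00898). Ccl2, another monocyte attractant, was at 0.876, 1.02 and 0.879 FPKM in Normal liver and 3.38, 5.48 and 9.97 at 24 h (1.82 ± 0.57, adjusted p = 0.0229). The call for Ccl2 was lost without Normal liver replicate 1 or 3 or PHX-24h replicate 2 or 3 (log2 fold change 1.47 to 1.85, adjusted p 0.0539 to 0.102). Without PHX-24h replicate 3 the list had 2 higher and 2 lower members, without PHX-24h replicate 2 it had 3 and 1, and without Normal liver replicate 3 it had 2 and 1.

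Metal homeostasis changed most in the metallothioneins, small cysteine-rich proteins that bind zinc and copper. Mt1 was at 12.3, 20.3 and 16.9 FPKM in Normal liver and 1113, 3388 and 3534 at 24 h (7.11 ± 0.48, adjusted p = 8.64e-07). Mt2 was at 2.92, 3.67 and 4.598 FPKM in Normal liver and 919.7, 2864 and 2594 at 24 h (8.66 ± 0.47, adjusted p = 7.37e-08). Replicate 1 was the lowest of the PHX-24h libraries for both, yet far above every Normal liver library. Slc39a14, a zinc and iron importer of hepatocytes, was at 22.1, 20.3 and 23.6 FPKM in Normal liver and 59.3, 101 and 113 at 24 h (1.95 ± 0.21, adjusted p = 2.08e-05). In the other direction, Slc40a1, the iron exporter ferroportin, was at 26.6, 51.4 and 38.9 FPKM in Normal liver and 17.5, 8.21 and 10.9 at 24 h (-1.61 ± 0.27, adjusted p = 0.000451). The zinc importer Slc39a4 was at 52.4, 33.7 and 55.2 FPKM in Normal liver and 13.9, 9.14 and 17.9 at 24 h (-1.73 ± 0.24, adjusted p = 0.000112). These 5 were the called members of a list of 11 metal genes, whose median was 0.

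The core letters of the metal response element, TGCACNC or TGCGCNC on either strand, were in the promoters of 4 of the 7 members of this list with a RefSeq entry, Mt1 and Mt2 among them, where 21.3% of all 27025 promoters hold them. Both metallothionein promoters are shown because their genes rose most in the list, with matches in capitals. Mt1 is at chr8:94178839-94179088 (+ strand) with 1 match, and Mt2 at chr8:94172368-94172617 (+ strand) with 3, the last of which reads on the other strand. These counts cover the stretch shown only, and elements after the start used or further upstream were not looked for.
Mt1: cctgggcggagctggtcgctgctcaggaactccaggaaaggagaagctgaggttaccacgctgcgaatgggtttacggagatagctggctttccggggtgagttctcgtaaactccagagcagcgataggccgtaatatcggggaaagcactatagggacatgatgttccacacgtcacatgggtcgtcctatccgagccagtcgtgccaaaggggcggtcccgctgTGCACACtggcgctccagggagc
Mt2: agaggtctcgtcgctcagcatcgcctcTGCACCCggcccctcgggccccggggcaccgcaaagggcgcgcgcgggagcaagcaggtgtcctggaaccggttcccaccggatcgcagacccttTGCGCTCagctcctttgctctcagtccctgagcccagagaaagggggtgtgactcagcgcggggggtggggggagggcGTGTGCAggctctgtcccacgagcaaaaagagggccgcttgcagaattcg

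Heat shock proteins, the cytosolic chaperones that refold damaged proteins, rose in part. Of 12 tested 4 rose and none fell, all 12 had a log2 fold change above 0, and the median was 0.88. Hsp90aa1, the inducible form of HSP90, was at 80.9, 79.04 and 72.1 FPKM in Normal liver and 701, 457 and 427 at 24 h (2.72 ± 0.2, adjusted p = 1.34e-06). Hspb1, a small heat shock protein, was at 18.5, 14.5 and 18.8 FPKM in Normal liver and 234, 44.3 and 52.97 at 24 h (2.2 ± 0.53, adjusted p = 0.00549), with replicate 1 well above the other 2. Hsph1, a nucleotide exchange factor for HSP70, was at 10.9, 7.79 and 10.3 FPKM in Normal liver and 74.99, 41.8 and 31.3 at 24 h (2.15 ± 0.35, adjusted p = 0.00042), again highest in replicate 1. Hspb8 was at 87.5, 74.5 and 105 FPKM in Normal liver and 260.5, 292 and 279.9 at 24 h (1.64 ± 0.2, adjusted p = 5.27e-05), with the PHX-24h libraries close together.

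Chaperones of the endoplasmic reticulum, where secreted proteins fold, also rose in part. Among 31 tested members 7 rose and 1 fell, with a median of 0.66, and 20 had PHX-24h libraries wholly above Normal liver (64.5%, against 23.9% of all genes). Creld2, an ER stress-induced secreted factor, was at 33.9, 23.7 and 23.7 FPKM in Normal liver and 137, 111 and 78.9 at 24 h (1.95 ± 0.37, adjusted p = 0.00117). Hyou1, an ER relative of HSP70, was at 35.8, 18.9 and 23.5 FPKM in Normal liver and 79.6, 61.5 and 52.1 at 24 h (1.3 ± 0.26, adjusted p = 0.00177). The ER-resident factor Manf was at 48.01, 34.7 and 34.6 FPKM in Normal liver and 109.5, 98.9 and 72.7 at 24 h (1.24 ± 0.23, adjusted p = 0.0011). Dnajc3, a co-chaperone that restrains the kinase PERK, was at 55.1, 49.8 and 46.5 FPKM in Normal liver and 123, 120.4 and 103 at 24 h (1.18 ± 0.14, adjusted p = 3.42e-05). Herpud1, which acts in the degradation of misfolded ER proteins, fell instead (210.3, 119 and 137 FPKM in Normal liver and 55.7, 70.7 and 65.5 at 24 h, -1.23 ± 0.23, adjusted p = 0.000977). The call for Herpud1 was lost without Normal liver replicate 1 (log2 fold change -0.99, adjusted p = 0.00505). Without Normal liver replicate 3 the list held 4 higher and 1 lower member. In a list for the amino acid stress response, only Asns, asparagine synthetase, was called of 16 tested (1.499, 3.39 and 2.33 FPKM in Normal liver and 7.02, 10.6 and 3.31 at 24 h, 1.15 ± 0.43, adjusted p = 0.0498), and that call was lost without Normal liver replicate 1 or 3 or PHX-24h replicate 1 or 2 (log2 fold change 0.82 to 1.15, adjusted p 0.1 to 0.203).

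The ER stress element, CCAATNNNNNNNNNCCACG on either strand, was in the promoters of 9 of the 24 members of the ER list with a RefSeq entry (37.5%) and of 4 of the 6 called ones, against 0.122% of all 27025 promoters. Creld2, at chr15:88819396-88819645 (+ strand), and Dnajc3, at chr14:118937682-118937931 (+ strand), are shown as called members that hold it, with the match in capitals.
Creld2: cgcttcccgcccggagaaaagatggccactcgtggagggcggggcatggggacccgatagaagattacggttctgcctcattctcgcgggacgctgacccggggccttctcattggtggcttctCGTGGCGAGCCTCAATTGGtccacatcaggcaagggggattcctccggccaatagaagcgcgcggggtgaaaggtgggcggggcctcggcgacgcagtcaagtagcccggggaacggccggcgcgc
Dnajc3: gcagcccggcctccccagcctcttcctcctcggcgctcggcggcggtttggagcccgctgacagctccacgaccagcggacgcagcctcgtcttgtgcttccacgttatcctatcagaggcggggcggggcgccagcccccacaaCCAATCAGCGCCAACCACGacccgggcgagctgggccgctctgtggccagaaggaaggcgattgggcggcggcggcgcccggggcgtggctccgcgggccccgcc
The heat shock element, GAANNTTCNNGAA or TTCNNGAANNTTC, was in 1 of the 8 heat shock promoters with an entry, that of Hspe1, whose gene was not called, and in 0.4% of all promoters. Elements with other letters or outside the bases searched were not counted, so a lack of matches does not show that a promoter lacks the element.

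Immediate early genes, which answer growth signals without new protein synthesis, had calls in both directions at 24 h. Of 14 tested 2 rose (14.3%, against 4.04% of all genes) and 1 fell (7.1%, against 4.54%), with a median of 0.80. Fosl2, a subunit of the AP-1 transcription factor, was at 1.38, 1.08 and 0.869 FPKM in Normal liver and 2.72, 5.31 and 4.77 at 24 h (1.29 ± 0.32, adjusted p = 0.00666) and kept its call when any library of the comparison was left out. Btg2, an antiproliferative gene, was at 3.88, 4.06 and 4.505 FPKM in Normal liver and 7.64, 33.5 and 17.3 at 24 h (1.77 ± 0.66, adjusted p = 0.0463). The call for Btg2 was lost without Normal liver replicate 1, 2 or 3 or PHX-24h replicate 2 or 3 (log2 fold change 1.29 to 1.82, adjusted p 0.094 to 0.192). Dusp1, a MAP kinase phosphatase, was at 28.2, 13.9 and 29.1 FPKM in Normal liver and 8.76, 13.02 and 8.04 at 24 h (-1.14 ± 0.42, adjusted p = 0.0469). The call for Dusp1 was lost without Normal liver replicate 1 or 3 or PHX-24h replicate 1, 2 or 3 (log2 fold change -1.33 to -0.96, adjusted p 0.0532 to 0.156). In a fit without PHX-D3 replicate 2, as in a fit of the 2 groups alone, 4 members were higher and 1 was lower.

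Hgf, which encodes hepatocyte growth factor, the ligand of Met, rose from 1.19, 1.64 and 0.821 FPKM in Normal liver to 6.102, 8.56 and 10.7 FPKM at 24 h (2.08 ± 0.36, adjusted p = 0.000663), with no overlap between groups. Hgfac, the protease that activates it, fell from 116, 111 and 134 to 46.4, 33.1 and 37.1 FPKM (-1.61 ± 0.25, adjusted p = 0.000325). They were the only called members among 12 tested growth factors and receptors (8.3% higher and 8.3% lower, against 4.04% and 4.54% of all genes). Egf was below the limit for testing, at 0.0724, 0.122 and 0.0669 and 0.1399, 0.103 and 0.103 FPKM.

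No G1 cyclin, cyclin-dependent kinase, E2F or pocket protein gene was called by limma among 18 tested, whose median log2 fold change was 0.08. Of these 4 had an unadjusted p under 0.05, and voom on recovered reads called none. Ccnd1, cyclin D1, stood at 9.46, 5.71 and 7.17 FPKM in Normal liver and 17.1, 4.72 and 16.8 at 24 h (0.56 ± 0.34, adjusted p = 0.213) and was called without PHX-24h replicate 2 (1.11, adjusted p = 0.00341). Replicates 1 and 3 were above and replicate 2 below all Normal liver libraries. Cdk4, its partner kinase, was at 22.2, 25.9 and 26.6 FPKM in Normal liver and 32.4, 20.9 and 24.5 at 24 h (0.04 ± 0.16, adjusted p = 0.864). Ccnd3 was at 20.6, 15.3 and 18.4 FPKM in Normal liver and 32.5, 18.6 and 23.1 at 24 h (0.41 ± 0.19, adjusted p = 0.102). Cdkn1a, the p53 target and cell cycle inhibitor p21, rose from 2.34, 0.828 and 1.64 to 5.896, 70.9 and 37.3 FPKM (3.4 ± 0.68, adjusted p = 0.00159) and was the only called gene of 12 inhibitors and p53 targets. Its level was more than 6 times higher in replicates 2 and 3 than in replicate 1, which still lay above Normal liver. Without PHX-24h replicate 1 the list of inhibitors and p53 targets had 1 higher and 1 lower member.

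DNA replication genes varied between the PHX-24h libraries. Of 40 tested 3 rose (7.5%, against 4.04% of all genes) and 2 fell (5%, against 4.54%), with a median of 0.14. The median difference from Normal liver, however, was 0.53 in replicate 1, -0.20 in replicate 2 and 0.03 in replicate 3. The summed FPKM of the list was 397.5 in replicate 1 and 162.2 and 189.9 in the other 2, on either side of the Normal liver range of 220.2, 244.6 and 241.8. Mcm5, a subunit of the replicative helicase, was at 1.89, 1.23 and 1.94 FPKM in Normal liver and 13.2, 3.11 and 3.29 at 24 h (1.24 ± 0.36, adjusted p = 0.015). The subunit Mcm2 was at 1.17, 1.32 and 1.66 FPKM in Normal liver and 9.496, 1.66 and 3.41 at 24 h (1.07 ± 0.33, adjusted p = 0.022). Gins2, a partner of this helicase, was at 0.7997, 0.777 and 0.816 FPKM in Normal liver and 5.87, 2.103 and 1.98 at 24 h (1.15 ± 0.25, adjusted p = 0.00279). Gins2 passed the limit on FPKM through the PHX-24h libraries alone, so only a rise could be called. Of the genes that fell, Tk1, thymidine kinase, was at 15.8, 21.9 and 18.5 FPKM in Normal liver and 9.195, 0.857 and 3.496 at 24 h (-2.15 ± 0.58, adjusted p = 0.0101). The replication initiation factor Mcm10 was at 17.8, 28.3 and 30.4 FPKM in Normal liver and 15.7, 2.78 and 3.21 at 24 h (-2.01 ± 0.69, adjusted p = 0.0336). The calls for the 3 higher genes were lost without PHX-24h replicate 1, where the log2 fold change was 0.65 for Mcm5, 0.53 for Mcm2 and 0.76 for Gins2. The list then had no higher and 3 lower members and a median of -0.11. Tk1 lost its call without PHX-24h replicate 2 (log2 fold change -1.53, adjusted p = 0.0603), and Mcm10 without Normal liver replicate 2 or 3 or PHX-24h replicate 2 or 3 (log2 fold change -1.92 to -1.63, adjusted p 0.0823 to 0.132). Without Normal liver replicate 2 the list had 1 higher and 1 lower member.

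Mitosis genes were mostly too low to test. Only 9 of 44 passed the limit on FPKM, of which none rose and 2 fell, with a median of -0.31, and the summed FPKM of the list was 77.3, 39.5 and 49.2 at 24 h against 91.06, 75.74 and 78.83 in Normal liver. Cenpa, the centromeric histone, was at 6.41, 4.02 and 5.64 FPKM in Normal liver and 2.47, 0.881 and 1.83 at 24 h (-1.25 ± 0.27, adjusted p = 0.0029). Pttg1, securin, was at 28.5, 31.7 and 27.6 FPKM in Normal liver and 15.8, 11.2 and 13.6 at 24 h (-1.07 ± 0.16, adjusted p = 0.000204). The call for Pttg1 was lost without PHX-24h replicate 2 (log2 fold change -0.95, adjusted p = 0.00168). Mki67, which encodes the proliferation marker Ki67, was at 0.529, 0.269 and 0.396 FPKM in Normal liver and 0.694, 0.0967 and 0.292 at 24 h and was not tested, like Foxm1, a transcription factor of G2 and mitosis, at 0.283, 0.0862 and 0.115 and 0.242, 0.0165 and 0.0748 FPKM. Replicate 1 was the highest of the PHX-24h libraries for Mki67 and Foxm1.

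The machinery of protein synthesis showed small differences and few calls. Of 50 ribosome biogenesis genes 2 rose (4%, against 4.04% of all genes), with a median of 0.28. In 22 the PHX-24h libraries were wholly above Normal liver (44%, against 23.9% of all genes). Nop58, a core protein of box C/D small nucleolar RNPs, was at 8.02, 8.24 and 12.4 FPKM in Normal liver and 27.1, 32.9 and 34.2 at 24 h (1.64 ± 0.22, adjusted p = 0.000117). Rrs1, a ribosome assembly factor, was at 8.31, 8.22 and 10.98 FPKM in Normal liver and 20.4, 17.6 and 20.6 at 24 h (1.02 ± 0.19, adjusted p = 0.0012). The call for Rrs1 was lost without Normal liver replicate 1 or 2 or PHX-24h replicate 1 or 3 (log2 fold change 0.95 to 0.99, adjusted p 0.00384 to 0.0069). Of 80 ribosomal protein genes 33 were separated upwards (41.2%, against 23.9% of all genes) and none downwards (against 25.5%), with a median of 0.33. Only Rpl22l1 was called (38.9, 55.8 and 35.9 FPKM in Normal liver and 81.3, 111 and 87.5 at 24 h, 1.1 ± 0.21, adjusted p = 0.00117). The call for Rpl22l1 was lost without Normal liver replicate 3 or PHX-24h replicate 2 (log2 fold change 0.96 to 0.97, adjusted p 0.00807 to 0.00847). Odc1, ornithine decarboxylase, the first enzyme of polyamine synthesis, was at 39.2, 34.6 and 42.6 FPKM in Normal liver and 85.8, 76.8 and 88.2 at 24 h (1.09 ± 0.24, adjusted p = 0.00326). Proteasome subunits (37 tested, median 0.19) and aminoacyl-tRNA synthetases (20 tested, median 0.06) had no member called by limma. An unadjusted p under 0.05 was found for 17 proteasome and 5 synthetase genes, and voom called 1 lower in each. Without PHX-24h replicate 1 limma called 1 proteasome gene lower. By contrast 39 of 74 oxidative phosphorylation genes were separated downwards (52.7%, against 25.5% of all genes) and none upwards, with a median of -0.23, and 1 was called, the complex I subunit Ndufv3 (54.03, 54.4 and 69 FPKM in Normal liver and 33.6, 25.4 and 24.5 at 24 h, -1.06 ± 0.14, adjusted p = 7.62e-05). The call for Ndufv3 was lost without Normal liver replicate 3 or PHX-24h replicate 3 (log2 fold change -0.98 to -0.95, adjusted p 0.000638 to 0.000778). In nucleotide synthesis (22 tested, median 0.10) the called gene was Shmt1, which makes the folate units for thymidylate, at 75.5, 75.4 and 83.8 FPKM in Normal liver and 56.7, 25.5 and 26.7 at 24 h (-1.18 ± 0.37, adjusted p = 0.0219). The call for Shmt1 was lost without Normal liver replicate 3 or PHX-24h replicate 2 or 3 (log2 fold change -1.13 to -0.99, adjusted p 0.0675 to 0.0936).

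Sterol synthesis had the largest share of lower members of the 44 pathway lists. Of 23 tested genes 18 fell and none rose, with a median of -1.56. Hmgcs1, the HMG-CoA synthase of the cholesterol pathway, was at 133, 114 and 163 FPKM in Normal liver and 23.5, 21.3 and 22.5 at 24 h (-2.54 ± 0.49, adjusted p = 0.00137), with all 3 PHX-24h libraries close together. Insig1, the ER protein that retains SREBP precursors, was at 132, 155 and 151 FPKM in Normal liver and 24.4, 13.2 and 17.03 at 24 h (-2.98 ± 0.59, adjusted p = 0.00151). Mvd, which decarboxylates mevalonate diphosphate, was at 21.2, 20.7 and 38.5 FPKM in Normal liver and 3.82, 1.34 and 3.31 at 24 h (-2.87 ± 0.49, adjusted p = 0.000553). Sc5d, a sterol desaturase, was at 177, 173 and 204 FPKM in Normal liver and 45.6, 23.1 and 26 at 24 h (-2.57 ± 0.25, adjusted p = 9.75e-06). All 4 were lower in each PHX-24h library than in any Normal liver library. Of the list 18 members were lower without PHX-24h replicate 1 and 13 and 13 without replicates 2 and 3. The letters TCACNCCAC of the sterol regulatory element were in 1 of 16 promoters of the list with an entry, that of Hmgcs1, and in 1.04% of all promoters. Elements with other letters or outside the bases searched were not counted, so a lack of matches does not show that a promoter lacks the element.

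Fatty acid synthesis genes fell in part. Of 15 tested members 8 fell and none rose, with a median of -1.30. Srebf1, encoding the SREBP1 regulator of this pathway, was at 57.7, 65.7 and 72 FPKM in Normal liver and 13.8, 4.16 and 6.11 at 24 h (-3.01 ± 0.37, adjusted p = 5.06e-05). Thrsp, a lipogenic nuclear protein, was at 197, 324 and 616 FPKM in Normal liver and 55.8, 8.71 and 18.03 at 24 h (-3.96 ± 0.77, adjusted p = 0.00132). Fasn, fatty acid synthase, was at 60.4, 29.2 and 80.7 FPKM in Normal liver and 15.9, 6.81 and 7.85 at 24 h (-2.34 ± 0.45, adjusted p = 0.00123). Acss2, which makes acetyl-CoA from acetate, was at 68.3, 68.3 and 103 FPKM in Normal liver and 20.3, 11.1 and 11.97 at 24 h (-2.41 ± 0.3, adjusted p = 5.85e-05). In all 4 genes replicate 1 was the highest of the PHX-24h libraries and still below every Normal liver library.

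Genes of lipid storage and fatty acid oxidation rose in part. In the list of lipid droplet and lipid uptake genes 7 of 17 rose and 2 fell, with a median of 0.19. Cd36, a fatty acid transporter, was at 9.57, 16.6 and 9.02 FPKM in Normal liver and 30.02, 70.9 and 65.2 at 24 h (2.1 ± 0.37, adjusted p = 0.000741). Fabp4, a fatty acid binding protein best known from adipocytes and macrophages, was at 20.3, 25.1 and 25.9 FPKM in Normal liver and 199, 205 and 89.3 at 24 h (2.65 ± 0.34, adjusted p = 7.83e-05). Cidec, a lipid droplet protein, was at 1.72, 1.99 and 1.62 FPKM in Normal liver and 5.05, 49.3 and 100.4 at 24 h (3.5 ± 1.24, adjusted p = 0.0388), with replicate 1 far below the others, and its call was lost without Normal liver replicate 1, 2 or 3 or PHX-24h replicate 2 or 3 (log2 fold change 2.65 to 3.55, adjusted p 0.0754 to 0.163). Fabp5 fell (70.6, 48.7 and 132 FPKM in Normal liver and 40.7, 19.3 and 13.8 at 24 h, -1.74 ± 0.44, adjusted p = 0.00651), as did the lipase gene Lpl (10.8, 12.8 and 12.1 FPKM in Normal liver and 5.21, 3.804 and 5.37 at 24 h, -1.16 ± 0.29, adjusted p = 0.00628). Without PHX-24h replicate 3 the list held 2 higher and 2 lower members. Among 26 genes of fatty acid oxidation and ketogenesis 5 rose and 1 fell, with a median of 0.33. Ehhadh, a peroxisomal beta-oxidation enzyme, was at 76.4, 103 and 67.8 FPKM in Normal liver and 224, 314 and 246 at 24 h (1.66 ± 0.26, adjusted p = 0.000325). The pantetheinase Vnn1 was at 16.98, 20.9 and 11.1 FPKM in Normal liver and 38.05, 55.6 and 51.8 at 24 h (1.54 ± 0.32, adjusted p = 0.00222). Acaa1b, a peroxisomal thiolase, fell (549.9, 734 and 516 FPKM in Normal liver and 194, 203 and 250.2 at 24 h, -1.46 ± 0.38, adjusted p = 0.00854). Apoa4, an apolipoprotein of triglyceride-rich particles, was among the 12 highest genes (92.5, 57.2 and 131 FPKM in Normal liver and 1185, 1447 and 2256 at 24 h, 4.13 ± 1.11, adjusted p = 0.00974).

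Cytochrome P450 genes of families 1 to 4, the oxidases of drugs, steroids and fatty acids, fell in part. Of 49 tested 18 fell and 3 rose, with a median of -0.87. Cyp2a5 was at 203, 441 and 239 FPKM in Normal liver and 70.3, 17.1 and 13 at 24 h (-3.41 ± 0.82, adjusted p = 0.0054). Cyp2c69 was at 22.6, 32.4 and 41.4 FPKM in Normal liver and 3.504, 1.35 and 3.55 at 24 h (-3.14 ± 0.5, adjusted p = 0.000342). Cyp2f2 was at 1049, 579.5 and 1038 FPKM in Normal liver and 255, 79.1 and 114 at 24 h (-2.69 ± 0.64, adjusted p = 0.00493). Cyp3a11, the main drug-metabolising member of family 3 in mouse liver, was at 3302, 3459 and 2334 FPKM in Normal liver and 822, 718 and 471 at 24 h (-2.19 ± 0.55, adjusted p = 0.00692). The 3 that rose were all fatty acid hydroxylases of family 4. Cyp4a14 was at 22.8, 96.04 and 26.3 FPKM in Normal liver and 622, 646 and 709 at 24 h (4.05 ± 0.49, adjusted p = 5.06e-05). Cyp4a10 was at 60.6, 120.5 and 73.1 FPKM in Normal liver and 324, 359 and 278 at 24 h (1.96 ± 0.5, adjusted p = 0.00768). Cyp4a31 was at 2.44, 3.87 and 1.69 FPKM in Normal liver and 10.1, 16.3 and 27.5 at 24 h (2.31 ± 0.33, adjusted p = 0.000154). Members of these clusters share sequence, and reads may have been split between them. Cyp1a2, an oxidase of aromatic amines, was at 487, 279.5 and 415 FPKM in Normal liver and 168, 52.2 and 45.4 at 24 h and did not pass the test (-2.36 ± 1.37, adjusted p = 0.19), although its groups did not overlap. Without PHX-D3 replicate 2 the same difference had an adjusted p of 0.000114, and in a fit of the 2 groups alone 0.00424.

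Conjugation enzymes, which couple drugs and steroids to glutathione, sulfate or glucuronate, had 13 lower and no higher members of 41 tested, with a median of -0.70. Sult5a1, a sulfotransferase, was at 17.5, 19.1 and 25.3 FPKM in Normal liver and 4.58, 1.15 and 0.7002 at 24 h (-2.97 ± 0.44, adjusted p = 0.000237). The glutathione transferase Gstm3 was at 117, 107 and 130.3 FPKM in Normal liver and 27.1, 9.71 and 13.04 at 24 h (-2.88 ± 0.61, adjusted p = 0.00245). Gsta2 was at 22.3, 32.6 and 22.2 FPKM in Normal liver and 3.902, 1.45 and 3.57 at 24 h (-2.79 ± 0.56, adjusted p = 0.00161). Replicates 2 and 3 were below replicate 1 for Sult5a1 and Gstm3, and no PHX-24h library reached the Normal liver range in these 3 genes.

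Of 21 tested bile acid genes 6 fell and none rose, with a median of -0.93. The number that fell was 10 without PHX-D3 replicate 2 and in the fit of the 2 groups alone. It was 9, 6 and 4 without PHX-24h replicates 1, 2 and 3 in turn. Cyp8b1, the sterol 12-alpha-hydroxylase that sets the make-up of the bile acid pool, was at 204, 139 and 146 FPKM in Normal liver and 9.24, 24.7 and 4.34 at 24 h (-3.85 ± 1.07, adjusted p = 0.0117). The call for Cyp8b1 was lost without PHX-24h replicate 3 (log2 fold change -3.32, adjusted p = 0.0567). Cyp27a1, which opens the alternative pathway, was at 266, 244 and 298 FPKM in Normal liver and 85.9, 71.7 and 66.1 at 24 h (-1.84 ± 0.52, adjusted p = 0.0129). Slc10a1, the sodium-dependent bile acid importer, was at 312, 323 and 429.5 FPKM in Normal liver and 181, 105 and 141 at 24 h (-1.33 ± 0.28, adjusted p = 0.0021). Slc27a5, the bile acid CoA ligase, was at 398, 428 and 424 FPKM in Normal liver and 179, 137 and 139 at 24 h (-1.46 ± 0.27, adjusted p = 0.000996). Cyp7a1, the rate-limiting enzyme of the classical pathway, was chosen after its values were seen. It stood at 27.5, 13.01 and 44.8 FPKM in Normal liver and 20.2, 0.0462 and 0.0116 at 24 h (-3.22 ± 1.26, adjusted p = 0.0575), with replicate 1 in the Normal liver range and the others near 0.

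Amino acid breakdown fell in 8 of 23 genes and rose in 1, with a median of -0.67. Gnmt, which methylates glycine and consumes S-adenosylmethionine, was at 1760, 2154 and 2164 FPKM in Normal liver and 696, 514 and 355 at 24 h (-2.0 ± 0.29, adjusted p = 0.000176). Hal, histidine ammonia-lyase, was at 143, 122 and 197 FPKM in Normal liver and 56.8, 32.2 and 44.4 at 24 h (-1.78 ± 0.38, adjusted p = 0.00245). Agxt, which converts glyoxylate to glycine, was at 227, 225 and 292 FPKM in Normal liver and 92.3, 95.2 and 72.2 at 24 h (-1.51 ± 0.22, adjusted p = 0.000208). Mat1a, which makes S-adenosylmethionine, was the gene that rose, at 383, 553 and 583 FPKM in Normal liver and 1241, 1981 and 1655 at 24 h (1.68 ± 0.26, adjusted p = 0.000273). Of 14 urea cycle and ammonia genes 3 fell (21.4%, against 4.54% of all genes) and 1 rose (7.1%, against 4.04%), with a median of 0.01. Ass1, argininosuccinate synthase, was at 1980, 1488 and 2361 FPKM in Normal liver and 769, 517 and 687 at 24 h (-1.56 ± 0.29, adjusted p = 0.000993). Gls2, liver glutaminase, was at 195, 176 and 223 FPKM in Normal liver and 79.7, 44.2 and 77.4 at 24 h (-1.59 ± 0.26, adjusted p = 0.000377). Slc25a15, the mitochondrial ornithine carrier, rose (88.8, 95.3 and 99.5 FPKM in Normal liver and 217, 207 and 256 at 24 h, 1.25 ± 0.13, adjusted p = 1.28e-05).

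Genes of glucose metabolism moved both ways. Of 26 tested 3 rose (11.5%, against 4.04% of all genes) and 4 fell (15.4%, against 4.54%), with a median of 0.02. Pklr, liver pyruvate kinase, was at 72.7, 57.2 and 114 FPKM in Normal liver and 32.6, 20.4 and 25.4 at 24 h (-1.57 ± 0.4, adjusted p = 0.00745). Ldha, lactate dehydrogenase A, rose (560, 656 and 537 FPKM in Normal liver and 1080, 1683 and 1556 at 24 h, 1.28 ± 0.24, adjusted p = 0.0011), and so did Pfkfb3, which makes the activator of phosphofructokinase (2.996, 1.55 and 2.95 FPKM in Normal liver and 6.73, 9.52 and 5.93 at 24 h, 1.27 ± 0.33, adjusted p = 0.00837). The list had 3 higher and 1 lower member without PHX-24h replicate 2, and 2 and 2 without PHX-24h replicate 3 or Normal liver replicate 3. In the pentose phosphate pathway 1 of 7 genes was called, Tkt, transketolase (44.4, 48.04 and 51.7 FPKM in Normal liver and 22.7, 16.3 and 20.5 at 24 h, -1.25 ± 0.16, adjusted p = 8.08e-05), with a list median of -0.23.

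Genes set by the sex-specific pattern of growth hormone had calls in opposite directions according to their bias. Of 21 tested male-biased genes 8 fell and none rose, with a median of -0.93. Hsd3b5, a steroid-reducing enzyme of male liver, was at 242, 285 and 274 FPKM in Normal liver and 42.9, 0.651 and 0.6096 at 24 h (-5.77 ± 1.09, adjusted p = 0.00116), with replicate 1 far above the others. Elovl3, a fatty acid elongase, was at 250.3, 97.9 and 130.4 FPKM in Normal liver and 35.7, 23.9 and 24.3 at 24 h (-2.38 ± 0.55, adjusted p = 0.0041). Selenbp2 was at 922, 667 and 816 FPKM in Normal liver and 120, 30.5 and 41.1 at 24 h (-3.87 ± 1.27, adjusted p = 0.0281). The call for Selenbp2 was lost without Normal liver replicate 1, 2 or 3 or PHX-24h replicate 2 or 3 (log2 fold change -4.0 to -3.48, adjusted p 0.0543 to 0.095). The count of lower male-biased genes was 4 without PHX-24h replicate 3 and 5 without any of the Normal liver replicates. Of 18 female-biased genes 6 could be tested and 4 of those rose, among them Acot4, an acyl-CoA thioesterase (5.54, 7.76 and 4.09 FPKM in Normal liver and 13.7, 15.4 and 19.4 at 24 h, 1.36 ± 0.21, adjusted p = 0.000274), and Cyp17a1, a steroid hydroxylase (3.55, 3.203 and 5.71 FPKM in Normal liver and 8.94, 13.1 and 15.7 at 24 h, 1.39 ± 0.27, adjusted p = 0.00133). The count of higher female-biased genes was 3 without PHX-24h replicate 2 and 3 without PHX-24h replicate 3. Of the 4 that rose, Cyp4a10 was also counted with the cytochrome P450 genes. The last of the 4 was Acot3 (0.384, 1.143 and 0.134 FPKM in Normal liver and 1.472, 3.145 and 6.727 at 24 h, 1.52 ± 0.50, adjusted p = 0.0279). The call for Acot3 was lost without Normal liver replicate 1 or 3 or PHX-24h replicate 2 or 3 (log2 fold change 1.10 to 1.54, adjusted p 0.0638 to 0.138). The sex of the mice was not used here. In the growth hormone and IGF axis only Igfbp2, an IGF binding protein, was called of 9 (603, 445 and 473 FPKM in Normal liver and 239, 255 and 200.1 at 24 h, -1.12 ± 0.2, adjusted p = 0.0008). The call for Igfbp2 was lost without Normal liver replicate 1 (log2 fold change -0.99, adjusted p = 0.00477). Igfbp1, another IGF binding protein, stood at 65.5, 27.3 and 59.7 FPKM in Normal liver and 41.97, 1006 and 329.7 at 24 h (2.32 ± 1.19, adjusted p = 0.139), and its log2 fold change was 3.57 with an adjusted p of 0.0263 without PHX-24h replicate 1. Without that library the list had 1 higher and 3 lower members, as it had without PHX-D3 replicate 2.

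Other genes among the 12 that fell most were Car3, a carbonic anhydrase (1778, 1610 and 1251 FPKM in Normal liver and 51.2, 15.1 and 10.4 at 24 h, -6.17 ± 1.58, adjusted p = 0.00755, with the call lost under voom on recovered reads at an adjusted p of 0.0826), and Upp2, uridine phosphorylase 2 (101, 246 and 155 FPKM in Normal liver and 14.4, 1.08 and 2.07 at 24 h, -5.1 ± 1.2, adjusted p = 0.00457). Inmt, an amine methyltransferase, was at 805, 1398 and 890.1 FPKM in Normal liver and 70.02, 28.5 and 25.5 at 24 h (-4.71 ± 1.38, adjusted p = 0.0161). The call for Inmt was lost without PHX-24h replicate 2 or 3 (log2 fold change -4.53 to -4.45, adjusted p 0.0512 to 0.056). Arrdc3, an arrestin-domain protein, was at 54.03, 89.03 and 45.9 FPKM in Normal liver and 4.04, 2.04 and 3.35 at 24 h (-3.92 ± 0.46, adjusted p = 3.42e-05). The water channel gene Aqp8 was at 49.7, 62.3 and 87.9 FPKM in Normal liver and 7.54, 3.37 and 3.799 at 24 h (-3.55 ± 0.35, adjusted p = 9.75e-06). In all 5 genes replicate 1 was the highest PHX-24h library and lay below every Normal liver library. The major urinary protein pseudogenes Mup-ps12 (-3.77) and Mup-ps16 (-3.54) fell as well, with levels that are uncertain because copies of this family are near-identical. Ly6d, a cell surface gene listed here with fetal and progenitor genes, rose from 0.818, 1.63 and 0.825 to 48.2, 261 and 736 FPKM (6.69 ± 1.01, adjusted p = 0.000242), spread over more than 10-fold between the PHX-24h libraries.

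Regulators of hepatocyte identity had calls in both directions. Of 15 hepatocyte transcription factors 2 rose (13.3%, against 4.04% of all genes) and 1 fell (6.7%, against 4.54%), with a median of 0.33. Onecut2 was at 4.41, 4.65 and 3.92 FPKM in Normal liver and 11.4, 9.14 and 11.2 at 24 h (1.12 ± 0.15, adjusted p = 9.88e-05). Cebpb, an acute phase regulator, was at 8.34, 25.6 and 11.5 FPKM in Normal liver and 22.5, 33.96 and 43.2 at 24 h (1.18 ± 0.31, adjusted p = 0.00915). The call for Cebpb was lost without Normal liver replicate 1 or PHX-24h replicate 3 (log2 fold change 0.86 to 0.98, adjusted p 0.0504 to 0.0512). Cebpa, which maintains metabolic genes in quiescent hepatocytes, fell from 190.5, 252 and 208 to 131, 99.6 and 80.8 FPKM (-1.08 ± 0.35, adjusted p = 0.027). The call for Cebpa was lost without Normal liver replicate 2 or 3 or PHX-24h replicate 2 or 3 (log2 fold change -1.1 to -0.91, adjusted p 0.0634 to 0.106). Hnf4a, the central regulator of hepatocyte genes, was at 164, 87.2 and 117 FPKM in Normal liver and 182, 210 and 231 at 24 h (0.79 ± 0.18, adjusted p = 0.00394), a difference that passed the adjusted p but not the 2-fold limit. None of 15 metabolic nuclear receptors was called by limma, with a median of 0.03, while 6 had an unadjusted p under 0.05 and voom called 2 lower.

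Plasma proteins outside the acute phase had 2 higher (5.7%, against 4.04% of all genes) and 3 lower members (8.6%, against 4.54%) of 35. Their median was -0.54, and 24 of the 35 were separated downwards (68.6%, against 25.5% of all genes). Apoe, apolipoprotein E, was at 17254, 18115 and 21068 FPKM in Normal liver and 8323, 6538 and 7379 at 24 h (-1.35 ± 0.18, adjusted p = 0.000104). Ttr, transthyretin, was at 4151, 4639 and 5440 FPKM in Normal liver and 2213, 1556 and 1575 at 24 h (-1.42 ± 0.28, adjusted p = 0.00156). Klkb1, plasma prekallikrein, was at 82.4, 83.4 and 75.5 FPKM in Normal liver and 33.5, 16.8 and 20.3 at 24 h (-1.79 ± 0.37, adjusted p = 0.00212). The complement gene C3 rose (1306, 1131 and 1404 FPKM in Normal liver and 2606, 2705 and 2728 at 24 h, 1.07 ± 0.2, adjusted p = 0.00108). The call for C3 was lost without Normal liver replicate 2 (log2 fold change 0.98, adjusted p = 0.00614). Alb, albumin, the most abundant plasma protein, was at 35611, 40900 and 33690 FPKM in Normal liver and 21675, 18988 and 24408 at 24 h and did not pass (-0.76 ± 0.29, adjusted p = 0.0525), although every PHX-24h library lay below every Normal liver library. Without PHX-24h replicate 1 the list had 2 higher and 6 lower members.

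Of the 15 genes that the study followed up or used as markers, 7 could be tested and Hgf was the only one called, with a median of 0.59. Barx2, a homeobox gene, was listed at 0 in all Normal liver libraries and at 0.0214, 0.181 and 0.132 FPKM at 24 h. Elf3, an epithelial ETS factor, was at 0.263, 0.204 and 0.334 and 0.838, 1.01 and 0.971 FPKM, and Mxd3, of the MYC-MAX network, at 0.245, 0.221 and 0.359 and 0.192, 0.222 and 0.1396 FPKM. Elf3 was higher in all 3 PHX-24h libraries and Mxd3 was not, and neither was tested. Sox9, a progenitor and bile duct marker, was at 1.695, 0.882 and 1.43 FPKM in Normal liver and 1.33, 5.599 and 3.16 at 24 h (0.79 ± 0.63, adjusted p = 0.346). Krt19, a bile duct keratin, was at 0.691, 1.53 and 0.871 FPKM in Normal liver and 1.502, 2.27 and 2.33 at 24 h (0.59 ± 0.28, adjusted p = 0.109). The list had 2 called members in several alternatives, Ccnd1 or Hnf4a when 1 library of the comparison was left out and Cyp1a2 without PHX-D3 replicate 2.

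Clock genes, which vary with the hour of day, had 1 higher (6.2%, against 4.04% of all genes) and 2 lower members (12.5%, against 4.54%) of 16. Their median was -0.22. Per1 was at 1.78, 1.25 and 2.12 FPKM in Normal liver and 5.803, 6.37 and 6.02 at 24 h (1.39 ± 0.19, adjusted p = 0.000108). Dbp, an output regulator of the clock, was at 32.5, 79.5 and 48.7 FPKM in Normal liver and 15.2, 2.41 and 6.49 at 24 h (-2.78 ± 0.6, adjusted p = 0.00271). Nr1d1, the repressor REV-ERB alpha, was at 38.1, 42 and 47.3 FPKM in Normal liver and 7.88, 10.1 and 11.8 at 24 h (-2.0 ± 0.27, adjusted p = 0.000104). The hour at which each liver was taken was not stated, and its part in the results was not tested. Without PHX-24h replicate 1 the list had 2 higher and 3 lower members.

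**Figure D2:**
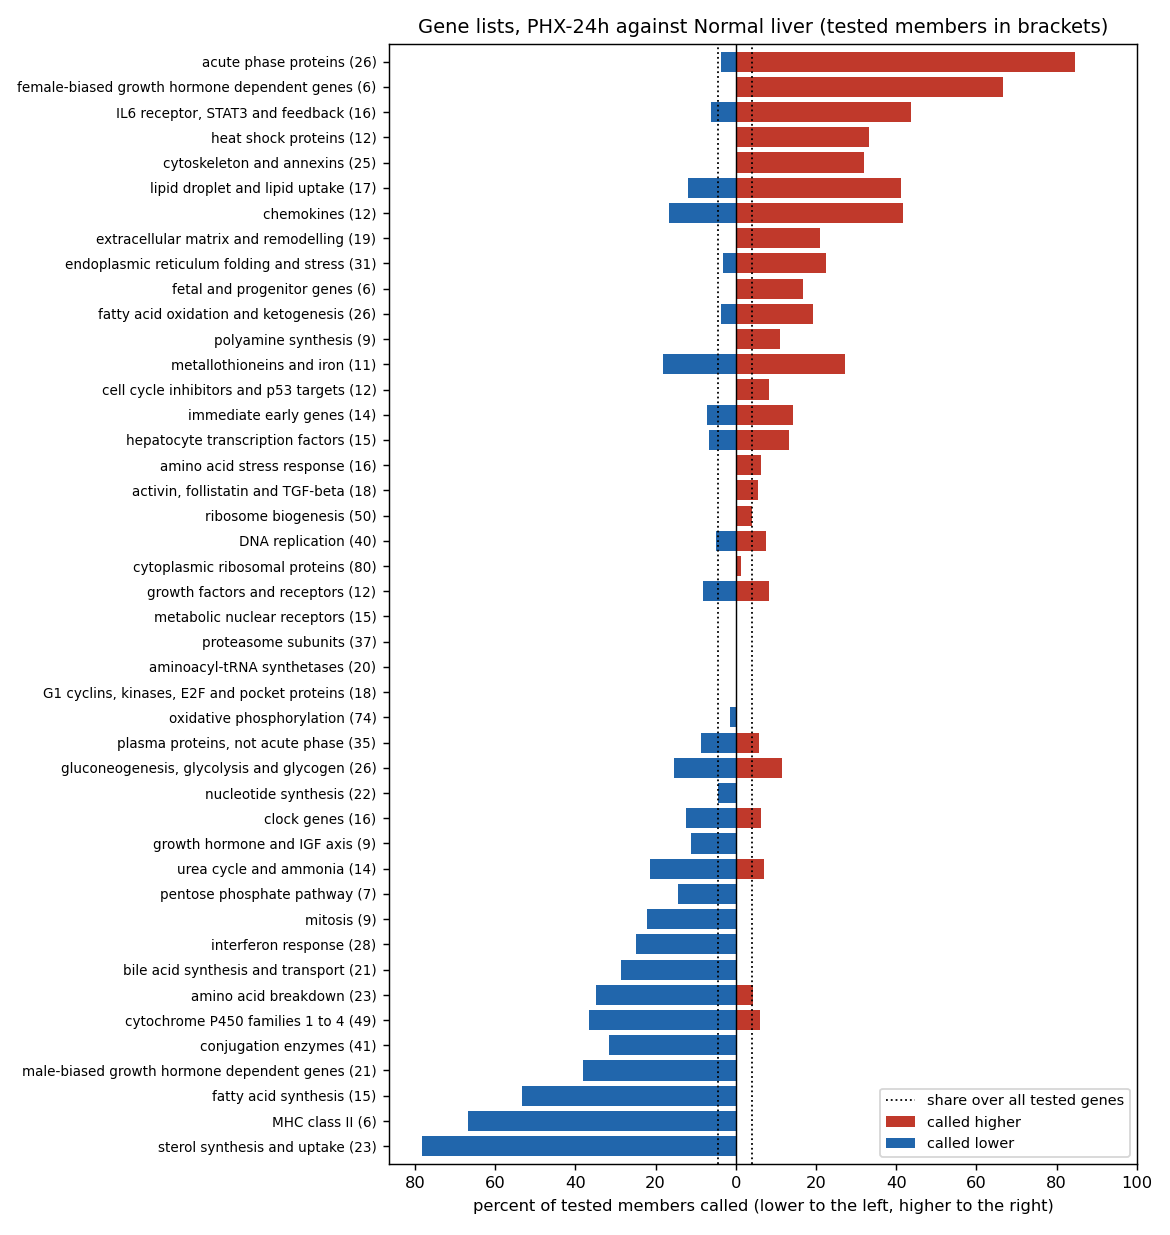
Percent of the tested members of each pathway list with at least 5 tested members that were called higher (right) or lower (left) at 24 h, with the number of tested members in brackets and dotted lines at the shares over all tested genes, 4.04% and 4.54%. Acute phase proteins reach furthest to the right with 84.6% of 26, and sterol synthesis furthest to the left with 78.3% of 23.

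**Figure D3:**
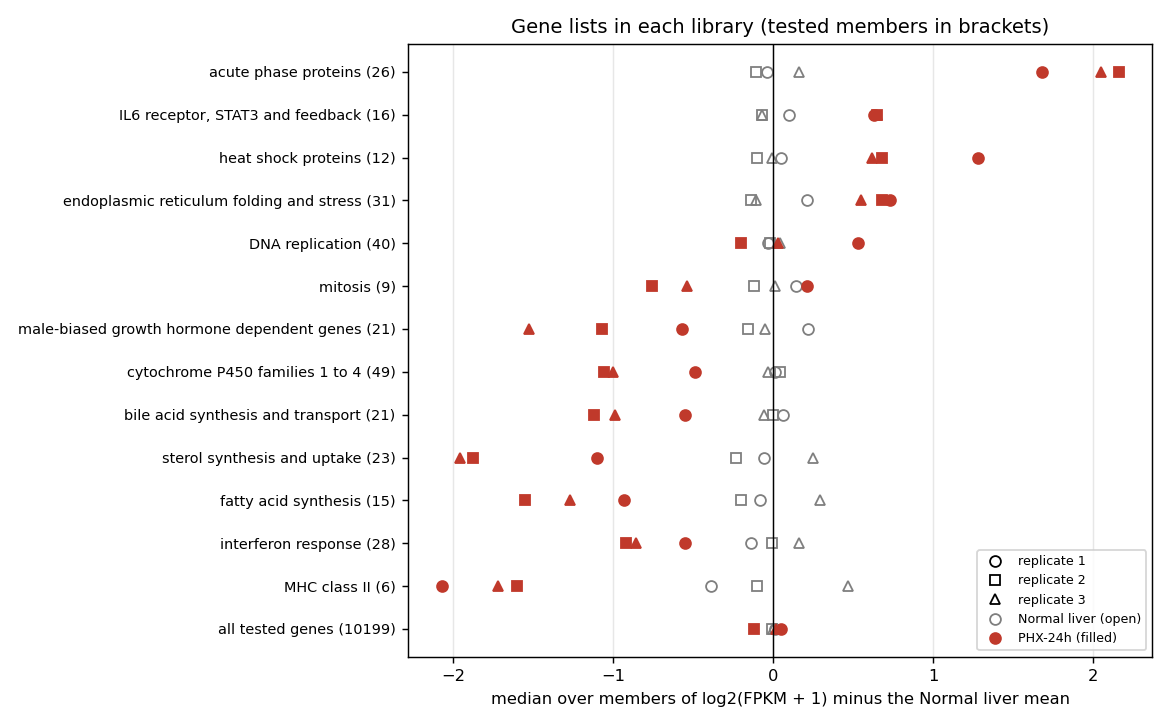
For 13 lists and for all tested genes, the median over members of log2(FPKM + 1) minus the Normal liver mean in each library, with Normal liver open, PHX-24h filled and the shape giving the replicate. For acute phase, sterol and fatty acid synthesis genes the PHX-24h points lie apart from Normal liver, whereas DNA replication and mitosis have replicate 1 above and replicate 2 below it.

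Interferon response genes fell in part. Of 28 tested 7 fell and none rose, with a median of -0.88, and 22 were separated downwards (78.6%, against 25.5% of all genes). Voom on recovered reads called 11 lower. Without PHX-24h replicates 1, 2 and 3 in turn the count of lower members was 9, 5 and 5. Irf7, the regulator of type I interferon genes, was at 29.8, 42.1 and 41.8 FPKM in Normal liver and 12.1, 10.7 and 11.2 at 24 h (-1.65 ± 0.24, adjusted p = 0.0002). The antiviral gene Ifit3 was at 9.45, 11.98 and 13.3 FPKM in Normal liver and 4.39, 1.39 and 3.74 at 24 h (-1.66 ± 0.3, adjusted p = 0.000855). Oasl1 was at 9.82, 9.61 and 13.6 FPKM in Normal liver and 5.19, 1.7 and 1.95 at 24 h (-1.7 ± 0.27, adjusted p = 0.000379). The genes of MHC class II, which present antigen on dendritic cells, macrophages and B cells, fell in 4 of 6, with a median of -1.80. Cd74, the invariant chain, was at 46.5, 59.8 and 93.5 FPKM in Normal liver and 10.1, 12.1 and 11.7 at 24 h (-2.4 ± 0.21, adjusted p = 5.65e-06). H2-Aa was at 19.2, 23.8 and 37.7 FPKM in Normal liver and 4.01, 6.09 and 5.57 at 24 h (-2.13 ± 0.37, adjusted p = 0.000623). The 3 Normal liver libraries varied by about 2-fold in both, and all PHX-24h libraries were lower.

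Genes of the cytoskeleton and annexins rose in 8 of 25, with a median of 0.61. Anxa1, an annexin, was at 2.82, 2.48 and 2.29 FPKM in Normal liver and 6.48, 24.9 and 14.97 at 24 h (2.05 ± 0.39, adjusted p = 0.00124). Anxa2 was at 8.68, 8.38 and 8.88 FPKM in Normal liver and 17.4, 32.3 and 51.95 at 24 h (1.72 ± 0.52, adjusted p = 0.0178). The call for Anxa2 was lost without PHX-24h replicate 2 or 3 (log2 fold change 1.36 to 1.69, adjusted p 0.051 to 0.0892). The count of higher members was 5 without PHX-24h replicate 2 and 3 without PHX-24h replicate 3. In extracellular matrix and remodelling 4 of 19 rose, with a median of 0.15. Fn1, fibronectin, was at 113, 78.01 and 115 FPKM in Normal liver and 199, 242 and 298 at 24 h (1.26 ± 0.24, adjusted p = 0.00103). The basement membrane collagen Col4a1 was at 6.68, 4.62 and 5.87 FPKM in Normal liver and 11.7, 27.3 and 27.8 at 24 h (1.71 ± 0.35, adjusted p = 0.00178). Timp1, an inhibitor of metalloproteinases, was at 0.04098, 0.0832 and 0.1002 FPKM in Normal liver and 2.27, 2.302 and 6.69 at 24 h (2.02 ± 0.63, adjusted p = 0.0215). The call for Timp1 was lost without Normal liver replicate 1 or 3 or PHX-24h replicate 3 (log2 fold change 1.61 to 2.04, adjusted p 0.0529 to 0.0994). Timp1 passed the limit on FPKM through the PHX-24h libraries alone, so only a rise could be called. The matrix count was 2 without PHX-24h replicate 3, Normal liver replicate 1 or Normal liver replicate 3.

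Markers of the cell types that liver tissue can hold moved with several of these groups. In bulk tissue fewer cells of a type and less RNA per cell cannot be told apart. The 6 hepatocyte markers summed to 52954 to 58602 FPKM in Normal liver and 29312 to 33820 FPKM at 24 h, with 2 lower (Ttr and Cyp3a11) and none at 0. The 10 Kupffer cell markers, of resident macrophages, summed to 260.7 to 399.3 and 214.7 to 225.5 FPKM, with 1 higher and 2 lower. Marco, a scavenger receptor, rose (4.2, 5.63 and 6.99 FPKM in Normal liver and 29.5, 34.4 and 30.6 at 24 h, 2.32 ± 0.49, adjusted p = 0.0025), while Clec4f (37.5, 60.4 and 53.9 FPKM in Normal liver and 19.9, 22.2 and 21.4 at 24 h, -1.19 ± 0.24, adjusted p = 0.00165) and Csf1r (9.57, 12.8 and 13.3 FPKM in Normal liver and 3.8, 3.14 and 3.83 at 24 h, -1.48 ± 0.25, adjusted p = 0.000543), the receptor of the macrophage growth factor CSF1, fell. For sinusoidal endothelium the sums over 11 markers were 188.5 to 202.5 and 114 to 132.3 FPKM. Of the 11, 10 had a log2 fold change below 0, and 1 was called higher and 2 lower, Dnase1l3 and Kdr. The call for Kdr was lost without PHX-24h replicate 2 (log2 fold change -0.90, adjusted p = 0.0706). Dnase1l3 fell (24.3, 17.4 and 24.5 FPKM in Normal liver and 9.45, 5.31 and 6.63 at 24 h, -1.52 ± 0.41, adjusted p = 0.0102), and Lyve1, a hyaluronan receptor, was higher (3.699, 2.902 and 3.11 FPKM in Normal liver and 3.88, 12.3 and 10.4 at 24 h, 1.1 ± 0.39, adjusted p = 0.0403). The call for Lyve1 was lost without Normal liver replicate 1, 2 or 3 or PHX-24h replicate 2 or 3 (log2 fold change 0.82 to 1.17, adjusted p 0.0651 to 0.169). The part of these cell types in the falls of interferon, MHC class II and hepatocyte genes was not tested.

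Recruited monocytes and neutrophils had 9 markers, which summed to 56.5 to 99.3 FPKM in Normal liver and 63.8 to 131.3 FPKM at 24 h. The neutrophil genes S100a9 (1.35, 3.702 and 2.18 FPKM in Normal liver and 4.77, 44.1 and 9.26 at 24 h, 2.08 ± 0.56, adjusted p = 0.00984) and S100a8 (0.1802, 2.93 and 0.9695 FPKM in Normal liver and 3.58, 30.8 and 9.16 at 24 h, 2.45 ± 0.69, adjusted p = 0.0135) rose and were highest in replicate 2. They were the called members of 5 tested, and 1 was called without PHX-24h replicate 2. Lyz2, lysozyme of macrophages and neutrophils and the most abundant of the list, was at 53.5, 89.8 and 73.3 FPKM in Normal liver and 51, 41.2 and 61.4 at 24 h (-0.47 ± 0.41, adjusted p = 0.393), and Ly6c2, a monocyte marker, had a log2 fold change of -0.02 (adjusted p = 0.955). S100a8 lost its call without Normal liver replicate 1 or PHX-24h replicate 2 (log2 fold change 1.71 to 2.03, adjusted p 0.0604 to 0.0782). All 8 lymphocyte markers were below the limit for testing, and their sums were 2.62 to 4.52 FPKM in Normal liver and 0.47 to 1.09 FPKM at 24 h. Of 9 stellate cell markers Hgf rose and Colec11, a lectin, fell (32.4, 31.6 and 26.3 FPKM in Normal liver and 11.5, 12.6 and 10.3 at 24 h, -1.32 ± 0.18, adjusted p = 0.000115). Of 3 tested cholangiocyte markers none was called by limma or voom, and 2 had an unadjusted p under 0.05. Without PHX-24h replicate 1 limma called 1 of them higher. Spp1, osteopontin, stood at 23.4, 25.3 and 29.6 FPKM in Normal liver and 33.6, 41.8 and 189 at 24 h (1.28 ± 0.56, adjusted p = 0.0851), with replicate 3 far above the rest, and its adjusted p was 0.0321 without PHX-D3 replicate 2. Alas2, of haem synthesis in red cell precursors, fell (77.6, 83.02 and 76.2 FPKM in Normal liver and 31.9, 16.6 and 15.8 at 24 h, -1.9 ± 0.46, adjusted p = 0.00541), as did the pancreatic elastase gene Cela2a from a low level (1.39, 1.38 and 2.12 FPKM in Normal liver and 0.211, 0.257 and 0.139 at 24 h, -1.12 ± 0.22, adjusted p = 0.00162). Cela2a passed the limit on FPKM through the Normal liver libraries alone, so only a fall could be called. Markers of mesothelium, muscle and adipose tissue were too low to test in these libraries.

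**Figure D4:**
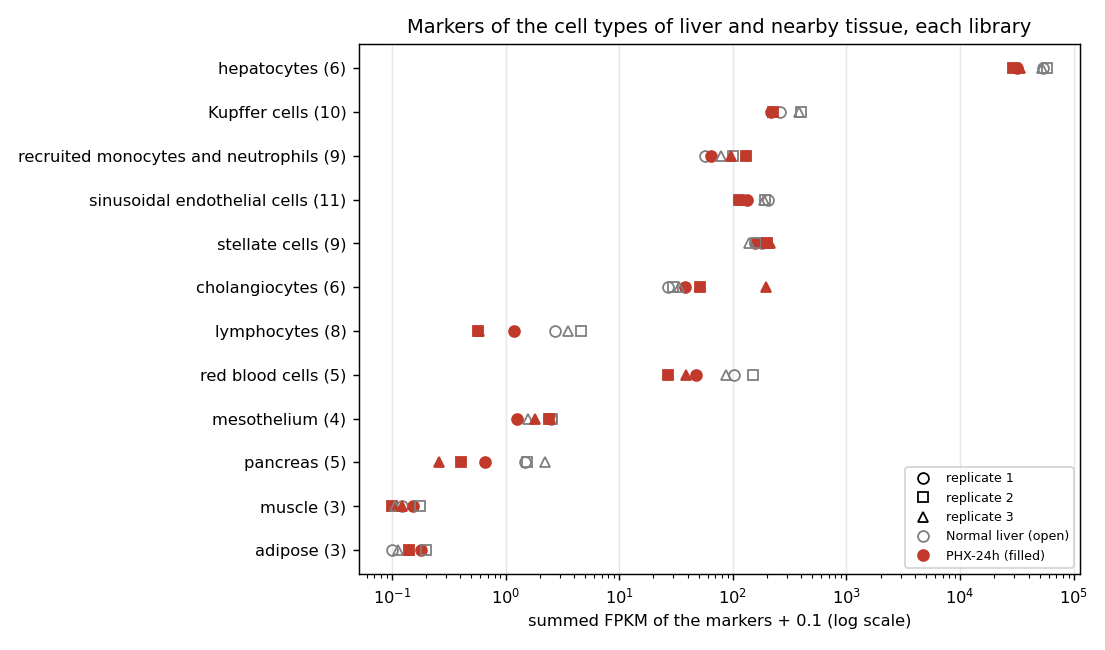
Summed FPKM plus 0.1 of the markers of 12 cell types and tissues on a log scale, each point being 1 library, with Normal liver open, PHX-24h filled, the shape giving the replicate and the number of markers in brackets. Sums for hepatocytes, Kupffer cells, sinusoidal endothelium, lymphocytes, red blood cells and pancreas are lower in all PHX-24h libraries, and those for monocytes and neutrophils overlap.

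The 24 h libraries were then set against the libraries of 6 h, which belong to the priming phase of regeneration. Of 10199 genes 575 were higher and 155 lower at 24 h (5.64% and 1.52%, or 7.16% together). The median of all genes was itself 0.26 higher at 24 h, and with median ratio scaling the counts were 288 and 306, and with quantile normalization 271 and 239, so that the direction of many small differences depended on the scaling. DNA replication genes were higher in 17 of 40 and lower in none, with a median of 0.93, and in 9 of 40 both without PHX-24h replicate 1 (median 0.63) and after median ratio scaling (median 0.70). Mcm5 stood at 0.276, 0.631 and 0.376 FPKM at 6 h against 13.2, 3.11 and 3.29 at 24 h (2.15 ± 0.36, adjusted p = 0.000472). Heat shock genes were higher in 6 of 12, with a median of 1.13, led by Hsph1 at 5.24, 6.87 and 6.79 FPKM at 6 h (2.7 ± 0.35, adjusted p = 9.62e-05) and Hsp90aa1 at 104, 101 and 134 FPKM (2.19 ± 0.2, adjusted p = 9.8e-06). After median ratio scaling 5 were higher and 1 lower. Immediate early genes were lower in 3 of 14, with a median of -1.14, in 1 without PHX-24h replicate 1 (median -0.91) and in 7 after median ratio scaling. Btg2 was at 210.2, 97.1 and 99.5 FPKM at 6 h (-2.86 ± 0.66, adjusted p = 0.00354). Cdkn1a was also lower at 24 h than at 6 h, where it stood at 176, 153 and 199.5 FPKM (-2.72 ± 0.68, adjusted p = 0.00584).

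Acute phase genes had calls in both directions between 6 h and 24 h, with 3 of 26 higher, 1 lower and a median of 0.27. After median ratio scaling these were 1, 1 and -0.03. Over all genes 5.64% were higher and 1.52% lower before that scaling, with a median of 0.26. Lcn2 was at 2752, 3150 and 3618 FPKM at 6 h (0.34 ± 0.71, adjusted p = 0.729) and Steap4 at 713, 586 and 1467 FPKM (-0.71 ± 0.42, adjusted p = 0.194), and the groups overlapped for both. Of the sterol genes only 1 of 23 differed, with a median of 0.10, and Hmgcs1 was at 25.7, 17.9 and 7.47 FPKM at 6 h (0.53 ± 0.49, adjusted p = 0.413). Thrsp, by contrast, was at 723, 566 and 571 FPKM at 6 h and fell after that time (-4.82 ± 0.77, adjusted p = 0.000345), and Fasn was at 52.3, 26.8 and 16.03 FPKM (-1.48 ± 0.45, adjusted p = 0.0167). Conjugation enzymes were lower in 8 and higher in 1 of 41, among them Gstm3 at 122, 104 and 63.3 FPKM at 6 h (-2.54 ± 0.61, adjusted p = 0.00484). Cyp4a14 was at 144, 127 and 261 FPKM at 6 h and higher at 24 h (1.96 ± 0.49, adjusted p = 0.00622). Marco also rose between these times, from 4.91, 11.9 and 6.93 FPKM (1.94 ± 0.49, adjusted p = 0.00663).

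Against day 3, 172 genes were higher and 183 lower at day 3 than at 24 h (1.69% and 1.79%, or 3.48% together), a comparison that PHX-D3 replicate 2 affected most. Without it 326 were higher and 238 lower, and in a fit of the 2 groups alone no gene passed, while 2352 had an unadjusted p under 0.05 there and voom on recovered reads called 625. Sterol genes were higher at day 3 in 17 of 23 and lower in none, with a median of 1.49, and in 12 with a median of 1.18 without PHX-D3 replicate 2. Hmgcs1 was at 46.9, 321 and 92.4 FPKM at day 3 (2.27 ± 0.49, adjusted p = 0.00481), with replicate 2 highest, and Sc5d at 74.5, 95.7 and 143 FPKM (1.71 ± 0.25, adjusted p = 0.000585). Fatty acid synthesis was higher in 7 of 15, with Srebf1 at 37.7, 20.5 and 66.4 FPKM (2.23 ± 0.37, adjusted p = 0.000934). Of 9 tested mitosis genes 6 were higher, with a median of 1.33, or 1.76 without that library. Cenpa was at 9.98, 4.67 and 12.1 FPKM at day 3 (1.82 ± 0.27, adjusted p = 0.000608), and Mki67, not tested, at 4.62, 2.12 and 8.39 FPKM. Tk1 was at 20.5, 4.64 and 40.5 FPKM (1.96 ± 0.58, adjusted p = 0.0243).

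Heat shock genes were lower at day 3 in 6 of 12, with a median of -0.97, and in 5 without PHX-D3 replicate 2. Hsp90aa1 was at 102, 85.97 and 86.99 FPKM at day 3 (-2.48 ± 0.2, adjusted p = 1.47e-05) and Hspb1 at 13.2, 13.98 and 3.99 FPKM (-3.03 ± 0.53, adjusted p = 0.00133). The ER list had 8 lower members and none higher, Creld2 among them at 50.5, 21.7 and 17.1 FPKM (-1.96 ± 0.37, adjusted p = 0.0021). Ribosomal protein genes were lower in 14 of 80, with a median of -0.68, and in 20 without PHX-D3 replicate 2. Acute phase genes were lower in 5 and higher in none of 26, and without that library lower in 11 and higher in 1. Steap4 was at 191, 105 and 87.03 FPKM at day 3 (-2.1 ± 0.42, adjusted p = 0.00285). Cytochrome P450 genes of families 1 to 4 had 4 higher and 4 lower members, but 13 higher and 2 lower without PHX-D3 replicate 2. Cyp3a11 was at 4201, 487 and 3797 FPKM at day 3 (1.6 ± 0.55, adjusted p = 0.0467), with replicate 2 far below the others, and without that replicate its log2 fold change was 2.61 with an adjusted p of 5.87e-06. The comparisons with 6 h and with day 3 share the PHX-24h libraries with the main one and are not independent of it.

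**Figure D5:**
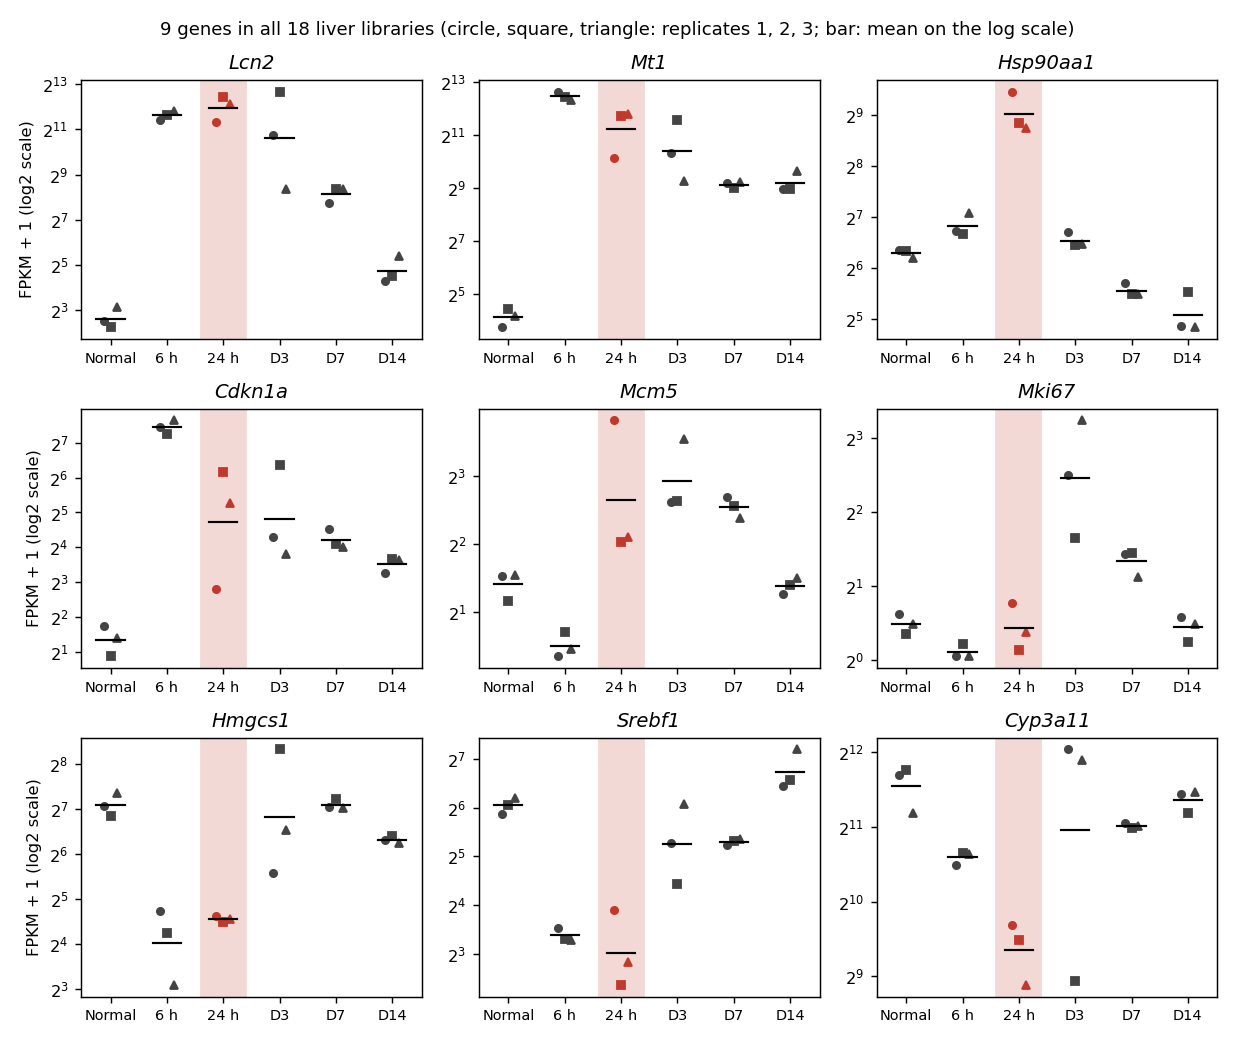
FPKM + 1 on a log2 scale of 9 genes in all 18 liver libraries from Normal liver to day 14 (D14), with the 24 h group shaded, the shape giving the replicate and a bar at the mean of log2(FPKM + 1). Hsp90aa1 is highest at 24 h in all 3 libraries, Lcn2 and Mt1 are already high at 6 h, and Mki67 is highest at day 3 (D3).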

How the data were processed

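Liver was flash-frozen, RNA was extracted with Trizol, and poly(A) mRNA libraries of 300 to 350 bp fragments were sequenced in 150 nt reads. Per the labels, the authors mapped reads with TopHat 1.4.1 and Cufflinks 1.3.0 to mm10. The deposited table holds FPKM per gene symbol and no counts. FPKM corrects for length and depth, so that a few very high genes lower all others. It named no transcript isoforms, and 25 gene symbols read as dates. FPKM values were whole multiples of a step in all 10199 tested genes (tolerance 0.05 reads), which gave the reads used by voom. Whole reads cover counting error only, so replicate spread sets the precision.

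Genes with at least 1 FPKM in 3 of the 6 libraries were tested with limma 3.58.1 in R 4.3.3 (trend, on log2(FPKM + 1)), in 1 fit of 6 group means over all 18 liver libraries, and p-values were adjusted (Benjamini-Hochberg) across those genes. Calls were made at an adjusted p under 0.05 and at least 2-fold. The scripts were tested on simulated data. With 3 libraries against 3 the smallest p of an exact permutation test is 0.1, so none was used. The 6 libraries made 3 comparisons, PHX-24h against Normal liver, PHX-6h and PHX-D3.

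Named were the 12 called genes with the highest and the 12 with the lowest log2 fold change, up to 4 called genes each way per list, the most abundant members of lists with under 2 calls, and the genes the study followed up, with exceptions marked in the text. The members and lists were chosen with earlier results of these data known, and the promoters shown were chosen after the matches were known. Promoters came from RefSeq (GRCm38.p6). Alternatives were a pseudocount of 0.1, no filter and a filter of 5 FPKM, quantile and median ratio scaling, a fit of the 2 groups alone, replicate number as a block, voom, no fold limit, a 4-fold limit and each library left out in turn. The fit without PHX-D3 replicate 2 was chosen after seeing the data. The cultured-cell libraries of the series were not used here. Some named genes are not reported here.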

Additional observations from a re-analysis of the deposited data

Results flagged for a closer look

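Lrrc16a, which encodes a regulator of actin capping, had log2 fold changes of opposite sign at 2 times after resection. At 24 h its log2 fold change against Normal liver was -1.02, with 4.47, 3.60 and 3.32 FPKM in Normal liver and 1.73, 0.843 and 1.57 FPKM at 24 h. At 6 h it was 1.65, with 9.999, 10.8 and 24.9 FPKM. The difference between the times was -2.67 (limma, adjusted p = 1.5e-05) and was -2.96 after median ratio scaling (adjusted p = 1.43e-05). Both log2 fold changes share the Normal liver libraries. Without PHX-24h replicate 2 the fall at 24 h was -0.85, and after median ratio scaling it was -0.99, both under the 2-fold limit.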

How the results depend on the processing

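The 875 genes called at 24 h against Normal liver were 3594 with no fold limit and 167 with a 4-fold limit, and lay between 684 and 1142 when each library was left out in turn. Genes in the lists gave 232 calls, 106 higher and 126 lower, with 424 at no fold limit, 72 at 4-fold and 184 to 251 over the libraries left out. Other alternatives for the 875 ranged from 701 with a filter of 5 FPKM to 1270 with voom. Against PHX-6h the 730 calls became 1348 with a pseudocount of 0.1, 1420 with voom, 3968 with no fold limit and 76 at 4-fold, with 559 to 910 over the libraries left out. Higher genes made up 78.8% of these calls, 53.1% after quantile normalization and 48.5% after median ratio scaling. For PHX-D3 against PHX-24h the 355 calls became 595 with a pseudocount of 0.1, 0 in a fit of the 2 groups alone, 625 with voom, 2443 with no fold limit and 37 at 4-fold, with 248 to 564 over the libraries left out, the highest without PHX-D3 replicate 2. The cause of these changes was not tested, except that a lower or higher fold limit admits more or fewer genes by construction.

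Replicate numbers showed no consistent sign of pairing. Deviations of same-numbered PHX-24h and Normal liver libraries correlated at -0.04, 0.20 and -0.11 over genes, and those of differently numbered libraries at -0.147 to 0.189. So few values cannot decide whether the numbers mark paired samples. With the replicate number as a block 875 genes were called against Normal liver (409 higher and 466 lower, 868 of them shared with the fit without the block), 231 in the lists, 728 against PHX-6h and 351 for PHX-D3.

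Of 206 named genes tested 161 were called and 114 kept the call under every alternative that left the fold limit in place and tested the gene. The call was lost by 12 under voom (Asns, Btg2, Car3, Cidec, Dusp1, Lyve1, Mcm10 and Selenbp2 among them), by 11 with no filter, by 7 without PHX-24h replicate 1, 28 without replicate 2 and 29 without replicate 3, and no named gene changed direction with a call. Without PHX-D3 replicate 2 960 genes were called against Normal liver and 814 against PHX-6h, and 4 more named genes passed (Cyp1a2, Igfbp1, Lgals3 and Spp1). Low FPKM limits the mitosis and lymphocyte lists, most of whose members could not be tested.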
